A study of Dunaliella salina with 18 samples.

Results

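RNA sequencing of the green alga Dunaliella salina, strain CCAP 19/3, was used to follow transcript abundance after a change of salinity, and the comparison described here is 4h against 0h in the arm titled L2H. It rests on 6 of the 18 libraries of the series, 3 at each time, taken by their titles. Total RNA came from cultured cells of the same strain in all groups, and no genotype, transgene or other agent is named in the labels. The salinity change is written one way in the titles and the other way in the condition labels, so the arm is called L2H and whether salinity rose or fell is not assigned. The arm titled H2L, the reciprocal change in the same strain and at the same times, is used only where a difference from it was tested or where its levels are set beside those of L2H. All libraries are of whole cultures, so fewer cells carrying a transcript and less of it per cell cannot be told apart.

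Dunaliella salina lives in brines of widely varying strength and lacks a rigid cell wall, so its cells swell or shrink with the outside salinity and must restore their volume. It is known for balancing external salt with glycerol made inside the cell from photosynthetic carbon and starch, for pumping sodium out of the cell, and for gathering carotenoids under stress. The early hours after a shift are when glycerol is made or removed and when transcript levels are reset. The table carries identifiers of assembled transcripts without gene names, and 0 identifiers matched the reference gene table, so no role is given to any transcript and no list of genes of these pathways could be described.

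The arm holds an internal split by title tag. At both times libraries 1 and 2 carry the tags 1-6-5 and 2-6-5, and the third library carries the tag 8-4. Libraries 1 and 2 are also called the pair, and the 8-4 library is named by its tag, whose meaning is not stated. The number of reads is unknown, because the values are scaled for depth; totals of the 6 libraries lay between 749880 and 792542 units and 5303 to 6570 transcripts per library were listed at 0. Across 34166 transcripts, Pearson's r of the log2 values was 0.963 between libraries 1 and 2 at 0h and 0.967 at 4h. Between the times r fell to between 0.917 and 0.919 for libraries 1 and 2. It was 0.967 for the 8-4 libraries at 0h and 4h, as high as between libraries 1 and 2 of the same time. Between 8-4 and libraries 1 and 2 it was 0.947 and 0.945 at 0h and 0.951 and 0.950 at 4h. The 8-4 library at 0h had r of 0.955 and 0.957 with libraries 1 and 2 at 4h. With the 3 L2H libraries at 24h it had r of 0.956, 0.958 and 0.959. The 8-4 library at 4h had r of 0.951, 0.954 and 0.960 with them. The 8-4 libraries thus stood apart from libraries 1 and 2 of the same time and were at least as like those of 24h. Results are given for libraries 1 and 2, for 8-4, and for all 3 together. Transcripts are not independent replicates, so r describes likeness only, and libraries 1 and 2 differed so little (SD of their log2 ratio 0.181 at 0h and 0.155 at 4h over 127 transcripts with a mean of at least 1000, against 0.751 and 0.705 between library 1 and 8-4) that a p-value from them measures the spread of close, possibly technical, repeats.

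In libraries 1 and 2 a large part of the measured transcriptome moved within 4h, in both directions. Limma, fitted on log2(value + 1) over libraries 1 and 2 of all 6 groups, called 8733 transcripts (adjusted p under 0.05), which is 25.6% of the 34166 tested. Of these 4887 (14.3%) were higher and 3846 (11.3%) lower at 4h, and 2826 had changed at least 2-fold, 1379 upward (4.04%) and 1447 downward (4.24%). Rises were 56.0% of the calls on the deposited scale, but 49.3% with quantile-normalized values and 47.1% with libraries scaled to their upper quartile, so which direction was in the majority depended on the scaling. With only the 4 libraries compared in the fit the count was 5187.

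Calls were frequent above 10 units and rare among the lowest transcripts. Binned by the mean of libraries 1 and 2 at the time when the transcript was higher, calls made up 0.454% of 5071 transcripts under 1 unit, 15.1% of 16913 between 1 and 10, 48.2% of 11125 between 10 and 100, 76.7% of 910 between 100 and 1000, and 63.3% of 147 at 1000 and above. Among the most abundant, 69 were lower at 4h and 24 were higher, against 11.3% lower and 14.3% higher over all tested. The share that was higher was thus near that over all. The median size of the change in libraries 1 and 2 was 0.61 on the log2 scale between 100 and 1000 units. Libraries 1 and 2 of the same time differed there by a median of 0.0888 at 0h and 0.0835 at 4h. Under 1 unit the order was the other way. The median change of the pair was 0.25. That was below the difference between libraries 1 and 2 at 0h (0.401) and 4h (0.365) and below the 8-4 change (0.37). The change of the pair averages 2 libraries at each time, and the other values are between single libraries. Averaging lowers scatter, so in every bin these sizes are not like for like. With both means under 1 unit, a 2-fold change cannot be reached on the log2(value + 1) scale. The 0% called with a 2-fold change is therefore no result.

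**Figure D1:**
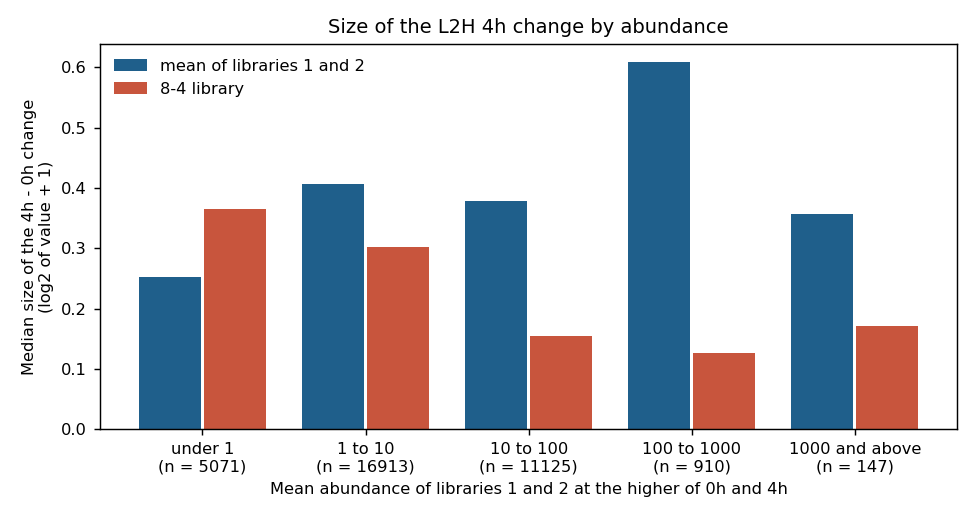
Median size of the 4h minus 0h change, without sign, on the log2(value + 1) scale (vertical axis) in bins of mean abundance of libraries 1 and 2 (horizontal axis, with the number of transcripts). Blue bars are the mean change of libraries 1 and 2 and red bars the change in the 8-4 library. Blue averages 2 libraries per time and red rests on 1, so the sizes are not like for like. Between 100 and 1000 units the medians are 0.61 and 0.13.

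The largest rises began from almost nothing. The transcript c48753_g2_i1 stood at 0.54 and 0.83 in libraries 1 and 2 at 0h and at 1221 and 1157 at 4h, while the 8-4 library held 547 at 0h and 481 at 4h. Its log2 change in libraries 1 and 2 was 9.47 (SE 0.092, adjusted p = 1.12e-11). Libraries 1 and 2 were thus separated by time more than 1000-fold, and the 8-4 library was high at both times. The transcript c30669_g1_i1 went from 0.58 and 0.26 to 719 and 670.25 in the pair and read 354 and 375 in the 8-4 library (log2 change in libraries 1 and 2 8.94, SE 0.11, adjusted p = 1.07e-10). The pattern is that of c48753_g2_i1, with the 8-4 library between the extremes of the pair.

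The same pattern was seen at lower levels in c45868_g1_i1, c42714_g1_i1 and c43073_g2_i1. The first went from 1.45 and 0.78 to 224 and 206 in the pair, with 137 and 158 in the 8-4 library (log2 change 6.69, SE 0.13, adjusted p = 1.18e-09). The transcript c42714_g1_i1 went from 3.62 and 3.79 to 464 and 419.7, with 265 and 235 in 8-4 (log2 change 6.55, SE 0.061, adjusted p = 1.12e-11). The transcript c43073_g2_i1 was listed at 0 in library 1 and at 0.48 in library 2 at 0h, and reached 99.9 and 101 by 4h, with 28.8 and 47.2 in 8-4 (log2 change in the pair 6.38, SE 0.25, adjusted p = 8.16e-08). In none of the 3 did a 0h value of libraries 1 and 2 come near a value of 4h, and in each the 8-4 values lay between them.

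The transcript c313_g2_i1 was already present at 0h, at 51.6 and 45.7, and rose to 2906 and 2683 in the pair (log2 change 5.82, SE 0.082, adjusted p = 1.32e-10). In the 8-4 library it read 1296 at 0h and 1412 at 4h, so that at 0h the 8-4 value was far above both of the other libraries. It is also the largest rise among transcripts with a mean of at least 1000 over the 6 libraries. Of 127 such transcripts, 18 had risen and 55 had fallen by 4h in the pair (limma). Over all 34166 tested, 14.3% were higher and 11.3% lower, so only the share that fell stood above that over all.

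The other named rises among these abundant transcripts were smaller in ratio and large in amount. The transcript c49291_g1_i1 went from 284 and 298 to 2539 and 2542 in the pair (log2 change 3.12, SE 0.051, adjusted p = 3.99e-10) and stood at 1419 and 1235 in 8-4. The transcript c39976_g1_i1 went from 519.8 and 519 to 4361 and 4416 (log2 change 3.08, SE 0.060, adjusted p = 1.02e-09), and in 8-4 it was 2887 at 0h and 3235 at 4h. In both, libraries 1 and 2 differed little at each time and the 8-4 library shows intermediate amounts.

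The largest falls were smaller on the log2 scale than the largest rises. The level of c50329_g5_i1 dropped from 154 and 131 to 1.42 and 2.18 in the pair, and read 60.5 and 60.1 in 8-4 (log2 change in libraries 1 and 2 -5.69, SE 0.31, adjusted p = 7.33e-07). A transcript that shares the first part of its identifier, and may share reads with it, c50329_g3_i1, fell from 108 and 100.2 to 1.9 and 0.78, with 27.6 and 32.0 in 8-4 (log2 change -5.53, SE 0.29, adjusted p = 6.13e-07). The transcript c48260_g3_i1 fell from 93.8 and 96.0 to 0.71 and 1.16, with 31.7 and 38.1 in 8-4 (log2 change -5.64, SE 0.26, adjusted p = 2.25e-07). All 3 were near silent at 4h in libraries 1 and 2 and well above that in the 8-4 library of the same time.

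The transcript c43988_g1_i2 fell from 64.5 and 71.5 to 1.25 and 0.48 (log2 change -5.24, SE 0.18, adjusted p = 3.07e-08), and its 8-4 values of 12.7 and 17.4 lay nearer to the 4h level. A pair with a shared first identifier part behaved otherwise. The transcript c45088_g1_i3 fell from 1198 and 1024 to 27.1 and 24.8 in the pair (log2 change -5.36, SE 0.11, adjusted p = 1.40e-09), and c45088_g2_i1 fell from 210.4 and 235 to 6.95 and 5.83 (log2 change -4.92, SE 0.080, adjusted p = 3.90e-10). In the 8-4 library they read 1205 and 1399, and 207 and 240.1, so the 8-4 library was at about the 0h level of libraries 1 and 2 at 0h and did not fall by 4h. The third library of H2L also stood above its pair in them. At 0h it read 1766 against 428 and 431 for c45088_g1_i3, and 567 against 143 and 146 for c45088_g2_i1.

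**Figure D2:**
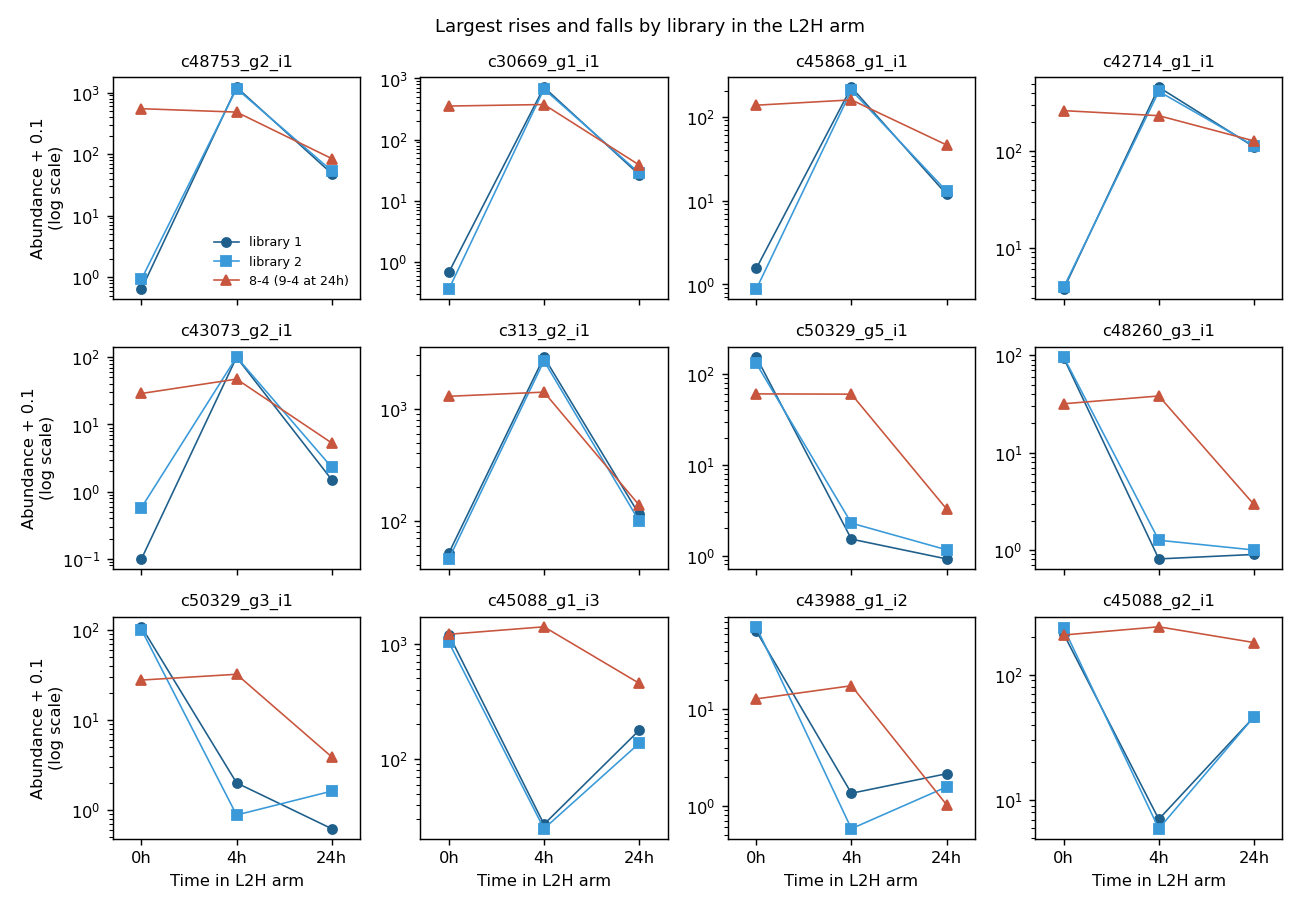
Abundance plus 0.1 units on log axes (vertical) at 0h, 4h and 24h (horizontal) in the L2H arm for the 6 largest rises and 6 largest falls in libraries 1 and 2. Circles and squares are libraries 1 and 2 and triangles the third library; the blue lines jump or drop between 0h and 4h, and the red line of c48753_g2_i1 stays at 547 and 481.

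Among abundant transcripts that fell, c44752_g1_i1 went from 2566 and 2408 to 194 and 199 in the pair (log2 change -3.65, SE 0.059, adjusted p = 3.90e-10), with 1282 and 1527 in 8-4. The transcript c39956_g1_i1 went from 2569 and 3013 to 317 and 376 (log2 change -3.01, SE 0.10, adjusted p = 2.66e-08), with 1362 and 1571 in 8-4. The transcript c48601_g4_i1 fell from 2226 and 2029 to 206 and 187 (log2 change -3.43, SE 0.087, adjusted p = 4.90e-09), and its 8-4 values, 2039 and 2061, lay within the 0h range of the pair. The 8-4 library was therefore intermediate in the former 2 and at the 0h level in the last. For c48601_g4_i1 the third library of H2L also stood above its pair, at 2511 against 740 and 726 at 0h.

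A small set was switched on in libraries 1 and 2. In 21 transcripts both libraries were at or below 1 unit at 0h and at or above 10 at 4h, with medians of 0.46 and 0.38 at 0h and 23.6 and 22.8 at 4h. In the 8-4 library none of the 21 was at or below 1 unit at either time, and their medians were 16.4 at 0h and 17.9 at 4h. Few were that low in most other libraries either. At or below 1 unit were 2 in each L2H library at 24h. In H2L libraries it was 1 to 3 at 0h, 2 to 4 at 4h and 6 to 10 at 24h. Their medians were 4.72 to 7.44 at L2H 24h and 4.2 to 9.31 at H2L 0h. The opposite, from at least 10 to at most 1, was met by 2 transcripts, c52757_g1_i1 and c69117_g1_i1, which stood at 4.10 and 3.38 in 8-4 at 0h and at 6.72 and 1.73 at 4h. The 8-4 values of c52757_g1_i1 and c69117_g1_i1 lay between the levels of libraries 1 and 2 at the 2 times. Not all of the 21 did so. The transcript c61483_g1_i1 read 24.1 and 25.4 in 8-4, above the 22.97 and 23.96 of the pair at 4h. In 8-4 c30282_g1_i1 read 12.95 at 0h and c36445_g1_i1 26.18 at 4h, also above both 4h values of the pair. The 23 transcripts were chosen by their values in libraries 1 and 2, so those values are a description; the 8-4 values took no part in the choice.

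Of the 21, 4 share the first part c43073 and may share reads. Besides c43073_g2_i1, described above, the transcript c43073_g3_i1 went from 0.41 and 0.81 to 78.0 and 82.8 in the pair and read 35.9 and 41.8 in 8-4. The transcript c43073_g4_i1 went from 0 and 0.59 to 58.5 and 68.3, with 27.4 and 26.7 in 8-4, and c43073_g1_i1 went from 0 and 0.33 to 27.6 and 35.1, with 22.2 and 27.7. For the last, the 8-4 value at 4h lay within the range of libraries 1 and 2. The transcript c65355_g1_i1 was listed at 0 in libraries 1 and 2 at 0h and in all 3 libraries at 24h, and stood at 17.6 and 20.5 at 4h and at 11.2 in 8-4 at both 0h and 4h.

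The 8-4 library showed almost none of this change between its own 0h and 4h. Of 12182 transcripts with a mean of at least 10 in libraries 1 and 2 at the higher time, 1469 (12.1%) were called with a change of at least 2-fold in libraries 1 and 2, 773 upward and 696 downward. Over the same 12182 transcripts the change between times had an SD of 0.77 in library 1, 0.78 in library 2 and 0.27 in 8-4 on the log2 scale, and it reached 2-fold in 13.0% and 13.6% for libraries 1 and 2 and in 0.591% for 8-4, 16 upward and 56 downward. Of the 773 rises, 694 (89.8%) changed by less than 0.5 (log2) in 8-4, as did 656 (94.3%) of the 696 falls. With no second library of the 8-4 series at either time, its change has no replicate check.

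The direction in 8-4 did not follow that of libraries 1 and 2 either. The 773 rises had a median log2 change of 1.33 in libraries 1 and 2 and of -0.09 in 8-4, and 254 of them (32.9%) were higher at 4h in 8-4. Over all 12182 transcripts the 8-4 change had a median of -0.05 and 40.8% were higher. The 696 falls had medians of -1.40 and 0.05, and 287 (41.2%) were lower in 8-4, against 59.1% of the 12182. With quantile-normalized values, a comparison added after the data were seen, the 8-4 medians were -0.06 for the rises, 0.07 for the falls and 0.01 for the 12182, and with upper-quartile scaling they were -0.02, 0.12 and 0.02. In the H2L arm, where the third library carries the tag D1-14-5, 540 rises chosen in the same way had a median change of 1.25 in libraries 1 and 2 and 0.87 in the third library, with the same sign in 495. For 375 H2L falls the medians were -1.26 and -0.93, with the same sign in 353. The third library of H2L thus moved with its pair, and that of L2H did not.

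**Figure D3:**
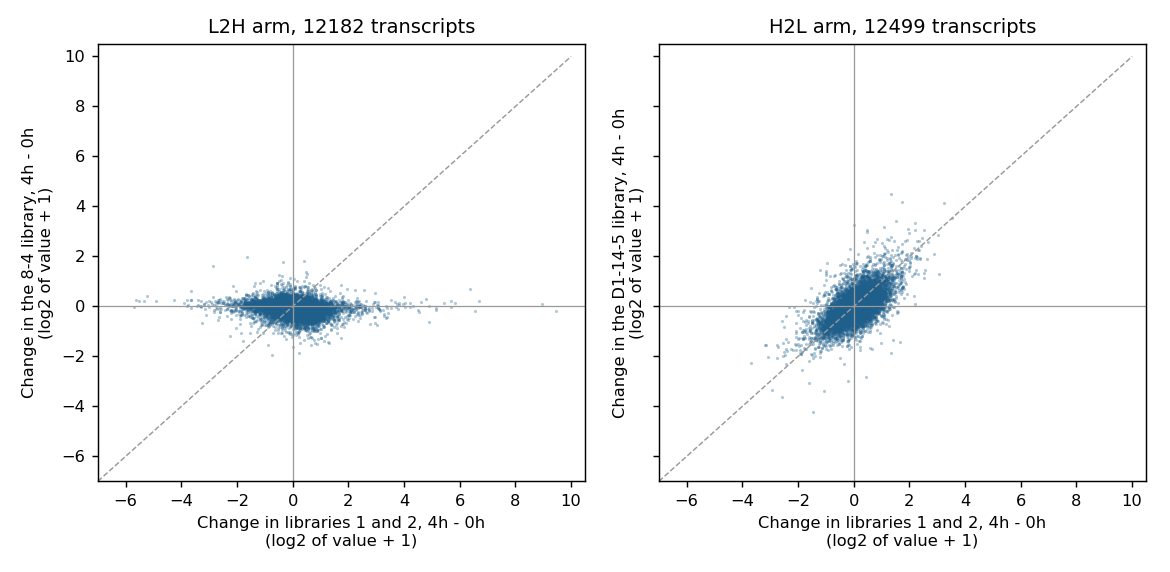
Change between 4h and 0h on the log2(value + 1) scale in libraries 1 and 2 (horizontal axis) against the change in the third library (vertical axis), for transcripts with a mean of at least 10 at the higher time, 12182 in L2H (left) and 12499 in H2L (right). Each point is a transcript and the dashed line marks equal change; the L2H points lie along the horizontal line, where the 8-4 library has an SD of 0.27, and the H2L points along the diagonal.

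The difference between the pair and 8-4 was also put to a test, though the likeness of the 8-4 libraries at 0h and 4h was known when the comparison was set up, so the calls are no independent evidence of it. With 1 library of 8-4 per time, the p-values rest on a spread taken from the other libraries. In a limma fit over all 18 libraries in which each of the 8-4 libraries had a mean of its own, and was assumed to vary like the other groups, the 4h change of libraries 1 and 2 minus that of 8-4 was called in 1129 of 34166 transcripts (3.3%), 708 higher (2.07%) and 421 lower (1.23%). The median of this difference over all transcripts was 0.11, and 0.0018 with quantile-normalized values, where 576 calls were higher and 595 lower. With libraries scaled to their upper quartile 505 were higher and 588 lower. The count depends on each library of the pair: it was 594 or 606 when library 1 or 2 at 0h was left out, and 626 or 577 when that of 4h was. The calls of c45088_g1_i3, c45088_g2_i1 and c49917_g1_i1 (adjusted p = 0.0248, 0.0438 and 0.0419) were lost without any 1 of these 4 libraries, at adjusted p of 0.0590 to 0.116.

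The level of the 8-4 libraries, as opposed to their change, lay between the 0h and the 4h level of libraries 1 and 2 for most transcripts that moved. Of the 773 rises, 704 (91.1%) had an 8-4 value at 0h above both 0h libraries of the pair and below both 4h libraries, and 704 also had so at 4h. Of the 696 falls the 8-4 value lay strictly between in 623 (89.5%) at 0h and in 615 (88.4%) at 4h. This count was not made for other libraries or over all tested transcripts. The sets were chosen for a wide gap between the times in the pair, so other libraries can fall inside it too. To place it, the value was written on the linear scale as the share of the way from the 0h mean of libraries 1 and 2, set at 0%, to their 4h mean, set at 100%. The rises had a median place of 54.8% in 8-4 at 0h (quartiles 45.4% and 65.3%) and of 46.7% at 4h (31.3% and 60.2%). The falls had a median place of 58.1% at 0h (41.8% and 70.1%) and of 56.8% at 4h (35.5% and 71.5%). In median place the 8-4 library thus stood, at 0h and at 4h, about midway between the 2 levels of libraries 1 and 2. For the falls this place was not particular to 8-4. H2L libraries 1 and 2 had median places there of 58.4% and 54.7% at 0h and of 49.6% and 50.3% at 4h. Their quartiles at 0h were 27.7% and 83.5% in library 1 and 24.5% and 83.5% in library 2, also inside the 2 levels. The D1-14-5 library of H2L had 40.3% and 40.1%. For the rises H2L lay lower, at 26.4%, 26.3% and 20.2% at 0h and at 16.1%, 16.7% and 11.5% at 4h.

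The corresponding places in H2L were far apart. The D1-14-5 library had a median place of 4.12% at 0h and 61.6% at 4h over the 540 H2L rises, and of 15.2% and 84.4% over the 375 falls. At 24h in the L2H arm, where the third library carries the tag 9-4, the 3 libraries gave like places for the rises, with medians of 34.5%, 34.1% and 32.9%, and for the falls, with medians of 58.8%, 55.8% and 62.1%. The third library of L2H therefore lay apart from its pair at 0h and 4h and close to it at 24h by this measure. How the labels or the cultures bear on the 8-4 values was not tested.

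**Figure D4:**
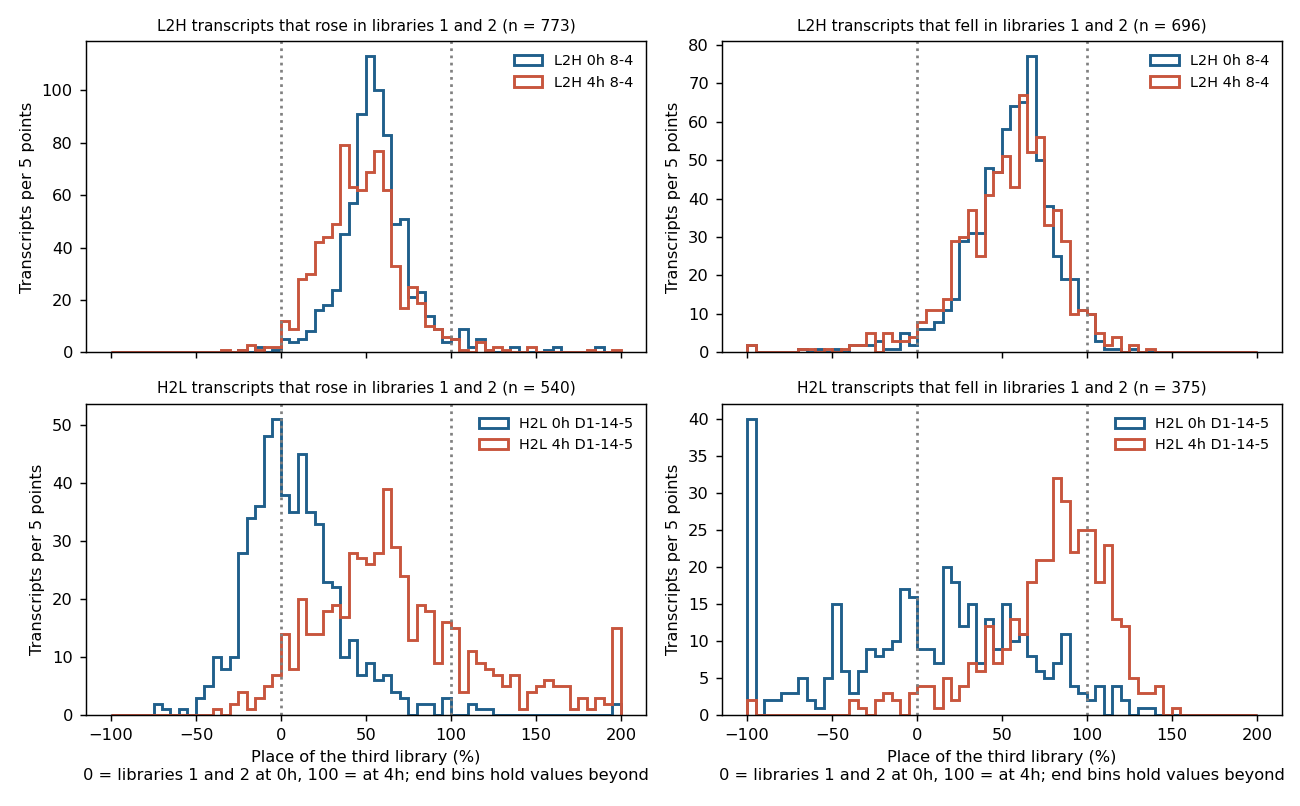
Place of the third library between libraries 1 and 2 at 0h (0%) and at 4h (100%) on the linear scale (horizontal axis) against the number of transcripts per bin (vertical axis), for transcripts called with at least 2-fold change in libraries 1 and 2, with values beyond the axis in the end bins. In L2H (top) the 8-4 libraries at 0h (blue) and 4h (red) overlap, with medians of 54.8% and 46.7% for rises, and in H2L (bottom) the D1-14-5 libraries part, with medians of 4.12% and 61.6%.

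The amounts involved were a sizeable part of each library. The 773 rises held 3.34% of the total of L2H libraries 1 and 2 at 0h and 12.7% and 12.6% at 4h. In the 8-4 library they held 8.25% at 0h and 7.87% at 4h. The 696 falls held 17.5% and 17.7% of the total of libraries 1 and 2 at 0h and 5.81% and 5.84% at 4h, while the 8-4 library held 12.3% and 13.1%. At 24h the 3 libraries lay close together, between 5.87% and 6.35% for the rises and between 11.8% and 11.99% for the falls. Because the transcripts were chosen by libraries 1 and 2 at 0h and 4h, only the values of the other libraries are independent of the choice.

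**Figure D5:**
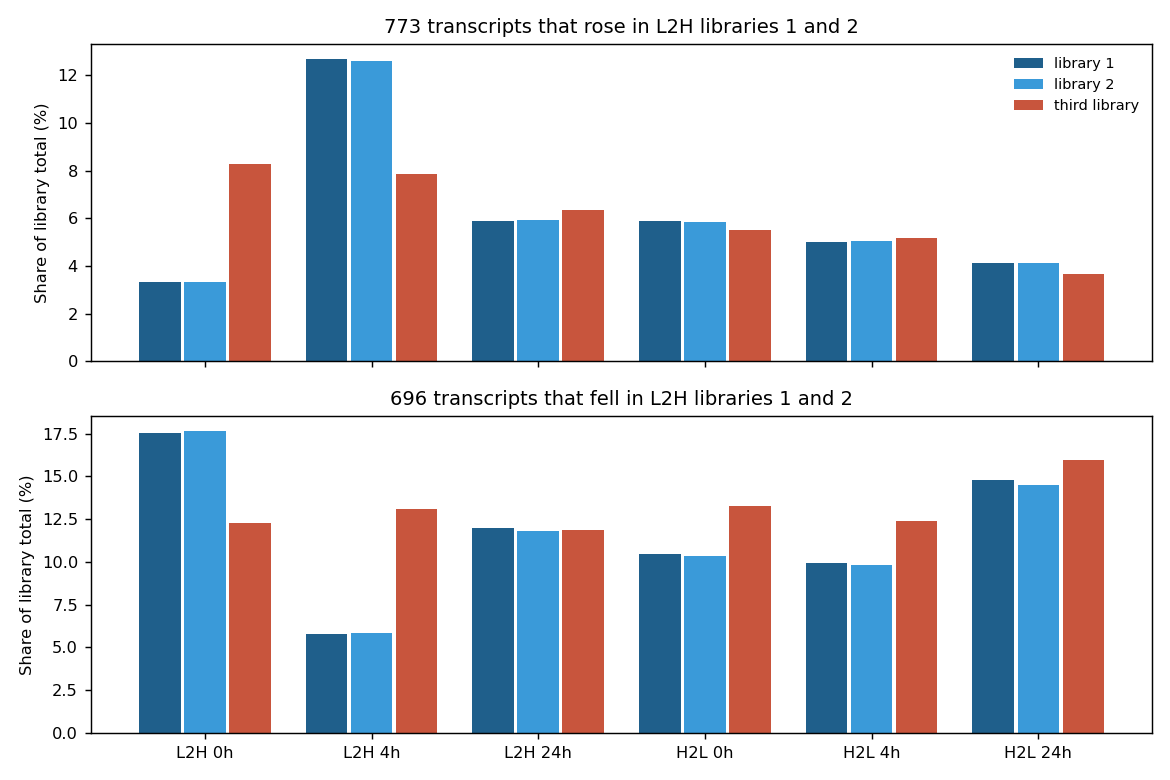
Share of the library total (vertical axis, percent) held by the 773 transcripts that rose (top) and the 696 that fell (bottom) in L2H libraries 1 and 2, in each of the 18 libraries (horizontal axis, by arm and time). Blue bars are libraries 1 and 2 and red bars the third library; in L2H the red bars are 8.25% and 7.87% for the rises at 0h and 4h, between the blue bars of 3.34% and 12.7%.

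With all 3 libraries of each time together, limma called 765 of 34166 transcripts (2.24%), 399 higher (1.17%) and 366 lower (1.07%) at 4h. Of these, 763 were also called in libraries 1 and 2 with the same sign. The 399 had a median change of 0.07 in the 8-4 library and the 366 a median of -0.14, so the pooled calls rest on libraries 1 and 2. Groups of 3 without overlap were found in 262 of the 399 and 258 of the 366. Over all tested transcripts this held for 6.87% upward and 9.77% downward, 16.6% in all. The same values made the calls, so the higher share among them is no support. With 8-4 mostly between the levels of the pair, overlap turns on the sign of the small 8-4 change. That sign was the one of the call in 262 of the 399 and 259 of the 366. When library 1 or 2 at 0h was left out limma called 0 transcripts (4018 and 3982 had an unadjusted p under 0.05), and likewise 0 when that of 4h was (4190 and 4368). Leaving out the 8-4 library at 0h gave 3301 calls and leaving out that at 4h gave 2645. Without both 8-4 libraries 4794 were called.

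The pooled means carry the split in their spread. For c30669_g1_i1 the mean was 118.2 ± 204 at 0h and 588 ± 186 at 4h (SD, n = 3; log2 change 5.99, SE 1.31, adjusted p = 0.0388), and for c43073_g2_i1 it was 9.76 ± 16.5 and 82.6 ± 30.6 (log2 change 4.48, SE 0.84, adjusted p = 0.0384). Of the other transcripts named by the pooled rule, c49917_g1_i1 fell from 36.1 and 37.6 to 1.84 and 2.26 in the pair, and stood at 15.4 and 14.8 in 8-4 (pooled log2 change -2.44, SE 0.59, adjusted p = 0.0431). The transcript c42358_g1_i1 fell from 1029 and 1354 to 107 and 135, with 525 and 520.2 in 8-4 (pooled log2 change -2.19, SE 0.44, adjusted p = 0.0384). In both, the groups of 3 did not overlap, with only the narrow gap between the 2 values of 8-4 between them. Of the 22 transcripts named, 18 were called over all 3 libraries, and all 18 calls were lost without library 1 or 2 of either time.

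Few transcripts moved by 2-fold in the same direction in libraries 1 and 2 and in 8-4. Of the 773 rises 0 did so, and of the 696 falls 6 did. The rule for naming set no size of change for the pair. By it, the transcripts were called in the pair and had a mean of at least 10 over 3 libraries at the higher time. Among these, 0 rises and 6 falls reached 2-fold in 8-4. The transcript c33113_g1_i1 fell from 15.5 and 11.9 to 2.93 and 1.31 in the pair (log2 change -2.27, SE 0.32, adjusted p = 0.000601) and from 12.1 to 4.80 in 8-4. The transcript c46162_g3_i1 fell from 16.5 and 9.79 to 2.72 and 4.89 (log2 change -1.55, SE 0.26, adjusted p = 0.00190) and from 11.98 to 5.12 in 8-4. For c33113_g1_i1 and c46162_g3_i1 the 8-4 library started at the 0h level of the pair, and the pooled comparison called both (log2 change -1.91 and -1.40, adjusted p = 0.0384 for each). The transcript c58312_g1_i1 went from 15.6 and 10.2 to 5.48 and 5.54 and from 8.22 to 3.36 in 8-4, and its call in libraries 1 and 2 (log2 change -1.07, adjusted p = 0.0455) was lost without any 1 of the 4 libraries, at adjusted p of 0.0504 to 0.232. Of the 12182 transcripts whose pair mean reached 10 at the higher time, 56 (0.46%) were lower by at least 2-fold in 8-4. Over all tested transcripts, 2.29% were higher and 3.59% lower by that much.

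The early rises named here had receded by 24h, in values given for description because a change to 24h would share the 0h libraries. The transcript c48753_g2_i1 stood at 48.2, 53.6 and 84.6 in the 3 L2H libraries at 24h, and c313_g2_i1 at 114, 99.8 and 138, both above their 0h level in libraries 1 and 2 and far below that of 4h. Among the falls some stayed low and some stood high again. The transcript c48260_g3_i1 read 0.80, 0.90 and 2.84 at 24h, as low as at 4h in libraries 1 and 2. The transcript c44752_g1_i1 was at 1432, 1451 and 1644, and c39956_g1_i1 at 1885, 1728 and 1718. The most abundant transcript of libraries 1 and 2 at 0h, c46710_g2_i7, which was picked after its values were seen, fell from 23546 and 21133 to 8657 and 8610, with 18087 and 18686 in 8-4, and stood at 20870, 16280 and 13297 at 24h.

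The 4h change of L2H differed from that of H2L, a comparison that shares no library with it. Within libraries 1 and 2, limma called the difference of the changes in 8996 of 34166 transcripts (26.3%), 4438 (13%) more positive and 4558 (13.3%) more negative in L2H. It was called in the direction of the L2H change in 682 of the 773 rises and 614 of the 696 falls, which were chosen by the same L2H libraries. The 773 rises had a median change of -0.20 in H2L, where 13 (1.68%) also rose and 70 (9.06%) fell by at least 2-fold with a call. The 696 falls had a median of 0.02, where 51 (7.33%) also fell and 53 (7.61%) rose by that much. By the same call, 2.98% of the 12182 transcripts they were chosen from rose in H2L and 2.95% fell, and over all 34166 the shares were 3.83% and 2.6%. H2L at 4h was called in 7924 transcripts (23.2%) within libraries 1 and 2, 13.1% higher and 10.1% lower. Over all 3 libraries it was called in 4104 (12%), 6.49% higher and 5.52% lower.

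Named transcripts differed between the arms in several ways. The transcript c43988_g1_i2, which fell in L2H, went from 4.34 and 4.42 to 42.9 and 43.3 in H2L libraries 1 and 2, a log2 change of 3.04 there and a difference between the arms of -8.27 (SE 0.25, adjusted p = 2.70e-08). The transcript c48753_g2_i1 went from 95.9 and 95.2 to 38.9 and 41.6 in H2L (log2 change -1.23), against its rise in L2H, a difference of 10.70 (SE 0.13, adjusted p = 9.61e-11). Others were low in H2L at both times and high later. The transcript c50329_g5_i1 was at 0.26, 1.58 and 2.02 at 0h and 0.54, 0.82 and 1.15 at 4h in the 3 H2L libraries, and at 104, 145 and 108 at 24h, near its level in L2H libraries 1 and 2 at 0h. The transcript c30669_g1_i1 lay between 20.5 and 29.3 in all H2L libraries at 0h and 4h, so that L2H libraries 1 and 2 passed from below to above the H2L level between 0h and 4h.

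Transcripts of the same component, the first part of the identifier, moved in different directions in some components and in 1 direction in others. Of 1370 components with at least 4 tested transcripts, c49326 had the most members called in the same direction in libraries 1 and 2, with 7 of 12 lower and 1 higher at 4h, where 11.3% of all tested transcripts were lower and 14.3% higher. A count of members favours large components. Its member c49326_g4_i1 fell from 16.1 and 19.3 to 7.17 and 5.42 (log2 change -1.36, adjusted p = 5.04e-05), with 14.3 and 12.1 in 8-4, and c49326_g5_i1 rose from 10.1 and 9.41 to 24.4 and 28.1 (log2 change 1.34, adjusted p = 0.000131), with 19.3 and 15.3 in 8-4. In c42404, 6 of 8 were lower and 1 was higher. Calls in a single direction were found in c49837, with 5 of 5 higher, and in c48270 and c48870, each with 5 of 6 higher and 0 lower, which were picked after their values were seen. Within c42404, the member c42404_g2_i1 fell from 33.9 and 37.1 to 6.42 and 8.93 (limma, log2 change -2.09, adjusted p = 0.000130). Its member c42404_g1_i1, at 1787 and 1096 before and 1356 and 1087 after, did not pass the test (adjusted p = 0.564). Members of a component may share reads, so their changes are not independent.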

How the data were processed

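The authors deposited 1 table with a signal of abundance for 43236 assembled transcripts in 18 libraries, scaled for transcript length and depth; the sources used here leave unnamed which such scale (FPKM or TPM) it is. FastQC, Bowtie2 and RSEM are named in the submitters' processing notes, without versions. No count model was used on these scaled values, whose depth is unknown, and counting intervals could not be given. Columns were matched to samples by title, and 0 columns belonged to no sample. The members, the tests and the rule for named transcripts were chosen with earlier results of these data known.

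Tests covered the 34166 transcripts (79.0%) that reached a value of 1 in 3 or more libraries. On the log2(value + 1) scale used, changes of low transcripts are understated. Group means were fitted with limma 3.58.1 (R 4.3.3) and a trend in the prior variance, over all 18 libraries or over libraries 1 and 2 of the 6 groups. All p-values are two-sided and Benjamini-Hochberg adjusted over all tested transcripts, with a threshold of 0.05, and a change of at least 2-fold is on that scale. Scripts were tested on simulated data. The series text calls the samples biological, but nothing says that they came from separate cultures, so p-values measure only the spread between libraries, which may be technical.

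Transcripts were named by rule: the 6 largest rises and 6 largest falls in libraries 1 and 2 (mean of at least 10 at the higher time); the 3 largest of each over all 3 libraries with no overlap; the 3 of each that changed most in both libraries 1 and 2 and 8-4; and the 3 of each with a mean of at least 1000. The 2 components with the most members called in the same direction were added, and the switched-on transcripts were described by fixed bounds of 1 and 10. No sequence was used.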

Additional observations from a re-analysis of the deposited data

Results flagged for a closer look

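A difference between groups was tested in 2 ways. The 4h change of L2H libraries 1 and 2 differed from that of the 8-4 library in 1129 transcripts, and that of L2H differed from that of H2L within libraries 1 and 2 in 8996 transcripts (limma, adjusted p under 0.05). The former restates a likeness of the 8-4 libraries that was known when the comparison was set up, and its p-values rest on a spread taken from other libraries, since 8-4 has 1 library per time. Each library of the pair bears on that count, which was 577 to 626 without any 1 of them.

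For transcripts named here, the log2 difference between libraries 1 and 2 and the 8-4 library was 9.65 for c48753_g2_i1, 8.86 for c30669_g1_i1, 6.73 for c42714_g1_i1 and 6.48 for c45868_g1_i1. It was 5.69 for c313_g2_i1, 5.69 for c43073_g2_i1, 3.32 for c49291_g1_i1 and 2.91 for c39976_g1_i1. Among transcripts that fell it was -5.90 for c48260_g3_i1, -5.74 for c50329_g3_i1, -5.68 for c50329_g5_i1, -5.67 for c43988_g1_i2, -5.58 for c45088_g1_i3 and -5.14 for c45088_g2_i1. It was -3.91 for c44752_g1_i1, -3.59 for c49917_g1_i1, -3.27 for c42358_g1_i1 and -3.21 for c39956_g1_i1. It was not called for c48601_g4_i1 at -3.45 (adjusted p = 0.0612, and 0.000908 with the replicate block), c33113_g1_i1 at -1.09, c46162_g3_i1 at -0.47 and c58312_g1_i1 at 0.01 (adjusted p = 0.317, 0.731 and 1). The named transcripts were chosen for their change in libraries 1 and 2, so these values are a description.

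The log2 difference between the arms was called for all 22 named transcripts. It was 10.70 for c48753_g2_i1, 9.06 for c30669_g1_i1, 7.62 for c42714_g1_i1, 7.38 for c43073_g2_i1, 6.98 for c45868_g1_i1, 5.96 for c313_g2_i1, 3.61 for c39976_g1_i1 and 3.60 for c49291_g1_i1. Among those that fell in L2H it was -8.27 for c43988_g1_i2, -5.61 for c48260_g3_i1, -5.58 for c50329_g5_i1, -5.20 for c50329_g3_i1, -4.53 for c45088_g1_i3, -4.31 for c45088_g2_i1 and -4.01 for c44752_g1_i1. It was -3.89 for c42358_g1_i1, -3.42 for c48601_g4_i1, -3.35 for c49917_g1_i1, -3.35 for c39956_g1_i1, -2.69 for c33113_g1_i1, -2.58 for c46162_g3_i1 and -1.53 for c58312_g1_i1. The last was lost without L2H 0h library 1, L2H 4h library 1 or 2, H2L 0h library 2 or H2L 4h library 1 or 2, at adjusted p of 0.0864 to 0.129. Over all 3 libraries the difference was called in 14 of the 22 and not in c50329_g5_i1, c48260_g3_i1, c50329_g3_i1, c45088_g1_i3, c45088_g2_i1, c49917_g1_i1, c58312_g1_i1 and c48601_g4_i1 (adjusted p = 0.0567 to 0.298).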

How the results depend on the processing

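The 765 calls over all 3 libraries were 1392 with a minimum value of 10, 4794 without both 8-4 libraries, 1 without the trend, and 0 with the library number as a replicate block, with a fit of the 2 groups alone and with libraries 1 and 2 averaged (limma; 6935, 5018 and 1810 at an unadjusted p under 0.05). Leaving out 1 library gave 0 to 3301. Deviations of same-numbered libraries from the mean of the 3 libraries at 0h and at 4h had r of -0.18 to -0.04 in L2H and of 0.07 to 0.25 in H2L. Same-numbered libraries share title tags of unstated meaning, and not every pair passed 0.1, so they were not treated as paired. In L2H this r cannot show whether they are paired. Libraries 1 and 2 passed from 1 side of the 8-4 level to the other for most transcripts that moved, which turns the sign of the deviations. The 8733 calls in libraries 1 and 2 were 5187 with only the groups compared, 8396 with the block and 6288 to 6491 with 1 library left out; averaging libraries 1 and 2 leaves no spread there and was not run. The 1129 differences between the series were 659 without the trend, 2385 with the block and 577 to 626 with 1 library left out. The 8996 differences between the arms were 3484 over all 3 libraries, 8587 with the block and 7134 to 7642 with 1 library left out. Other alternatives stayed within 1.5 times. The cause of these shifts was not tested.

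The median place of the 8-4 library for rises at 4h was 52.6% with a minimum mean of 100. For falls at 0h it was 56.5% with a minimum of 4-fold, 52.1% with a minimum mean of 100, 61.3% on quantile-normalized values and 61.2% with upper-quartile scaling. For falls at 4h it was 55.8%, 42.8% and 55.2% with a minimum of 4-fold, a minimum mean of 100 and upper-quartile scaling. For the 22 named transcripts, no called change turned its sign under any alternative run. Over all 3 libraries 145 of 374 recomputed values lost their call, and in libraries 1 and 2 9 of 286 did, 8 of them c58312_g1_i1. Depth is unknown, so whether low transcripts differ cannot be bounded by counting error.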
